A study of Homo sapiens with 4 samples.

Results

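The 9p21 tumour suppressor locus was examined through its 4 protein-coding members, MTAP, CDKN2A, CDKN2B and DMRTA1, in peak lists of trimethylated lysine 4 of histone H3 (H3K4me3) from MDA-MB-231, a long-established human cell line derived from a triple-negative breast cancer. The members were taken by position: 5 transcription start sites of these genes on chromosome 9 of hg19, in a window from 21000000 to 23000000. The window held 0 of the 36677 peaks of the control list and 0 of the 23588 peaks of the ARID1A knockout list. The line is reported to have lost CDKN2A. The question was how far the stretch without H3K4me3 peaks reaches in each list and where peaks are next called on either side.

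Chromatin from control cells and from ARID1A knockout cells was cut with micrococcal nuclease, precipitated with an H3K4me3 antibody and sequenced, and each genotype had 1 immunoprecipitate (IP) library and 1 input library, 4 in all. ARID1A belongs to the SWI/SNF complex, which remodels chromatin. The labels describe the reference cells only as control. They do not give the method of the knockout or say whether it is a single clone, and K6, the library name in the knockout list's header, appears in no label. For 3 libraries the line is labelled with a last digit that departs from MDA-MB-231, and IgG is the antibody label of both inputs. The control IP held 27748061 tags and the knockout IP 13391724. Of these, 17235561 and 13307723 lay in peaks. The lists also differed in form: the median peak width was 2968 bp in the control list and 300 bp, also the minimum, in the knockout list. How this bears on spans, overlaps and ratios was not tested. With 1 IP library per genotype there was no replicate check and no test of the genotype, and all intervals cover counting error only. The identity of the line was not checked against marker genes, and the ARID1A gene was not analysed here.

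H3K4me3 is placed around the start sites of active and poised genes, above all at promoters rich in CpG dinucleotides. CDKN2A gives rise to a pair of unrelated proteins from separate start sites: p16INK4A, which inhibits the cyclin-dependent kinases CDK4 and CDK6 and so keeps the retinoblastoma protein RB1 active, and ARF, which holds MDM2 away from p53. CDKN2B encodes p15INK4B, a second inhibitor of CDK4 and CDK6. MTAP encodes the enzyme that salvages methionine and adenine from methylthioadenosine, and is often lost together with CDKN2A in tumours because the genes are neighbours. DMRTA1 encodes a transcription factor with a DM domain.

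The promoters of the members in the reference genome show what kind of sequence belongs at annotated starts of these genes. Whether the cells still held it cannot be told from the peak lists. The RefSeq promoter table, in GRCh38.p14, held all 4 genes with 5 start sites. The 250 bases before each start are given below 5' to 3' on the strand of the gene, with every CG dinucleotide in capitals. These coordinates belong to GRCh38.p14 and were not matched to the hg19 peak positions or to the 5 hg19 start sites. A promoter shown may therefore belong to another annotated start of its gene than the one used for distances.
MTAP, chr9:21802386-21802635, plus strand: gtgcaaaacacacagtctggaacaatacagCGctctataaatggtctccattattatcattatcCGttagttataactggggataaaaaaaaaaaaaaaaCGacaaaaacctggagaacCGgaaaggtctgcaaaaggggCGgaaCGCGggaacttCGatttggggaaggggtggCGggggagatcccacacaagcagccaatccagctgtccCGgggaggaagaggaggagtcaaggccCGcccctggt
CDKN2A (start nearer MTAP), chr9:21974858-21975107, minus strand: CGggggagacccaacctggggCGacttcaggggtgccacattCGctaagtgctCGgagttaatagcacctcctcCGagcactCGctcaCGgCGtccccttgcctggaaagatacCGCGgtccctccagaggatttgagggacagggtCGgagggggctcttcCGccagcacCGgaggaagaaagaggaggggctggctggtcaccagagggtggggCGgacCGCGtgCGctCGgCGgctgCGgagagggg
CDKN2A (start nearer CDKN2B), chr9:21995325-21995574, minus strand: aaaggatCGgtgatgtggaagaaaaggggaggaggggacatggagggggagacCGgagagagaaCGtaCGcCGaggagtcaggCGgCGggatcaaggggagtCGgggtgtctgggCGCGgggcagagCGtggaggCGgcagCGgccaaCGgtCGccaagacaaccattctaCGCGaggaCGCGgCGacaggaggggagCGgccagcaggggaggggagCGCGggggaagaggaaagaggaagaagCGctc
CDKN2B, chr9:22009306-22009555, minus strand: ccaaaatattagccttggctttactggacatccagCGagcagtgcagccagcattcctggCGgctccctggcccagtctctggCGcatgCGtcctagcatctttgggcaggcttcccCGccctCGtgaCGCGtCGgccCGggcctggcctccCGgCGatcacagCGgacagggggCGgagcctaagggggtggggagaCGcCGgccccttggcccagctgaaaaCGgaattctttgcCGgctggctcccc
DMRTA1, chr9:22446574-22446823, plus strand: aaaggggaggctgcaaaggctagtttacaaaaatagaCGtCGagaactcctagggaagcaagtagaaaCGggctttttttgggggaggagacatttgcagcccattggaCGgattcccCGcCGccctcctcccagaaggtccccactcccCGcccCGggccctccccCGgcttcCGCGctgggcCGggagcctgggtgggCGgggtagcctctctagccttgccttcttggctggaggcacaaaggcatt

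All 5 upstream stretches held at least as many CG dinucleotides as the median of 11 over the 35116 promoters of the table (quartiles 3 and 23). MTAP had 11, at a GC content of 50.0%, below the median GC content of 58.0%. The CDKN2A start nearer MTAP, which belongs to p16INK4A, had 20 at 66.8% GC, and the start nearer CDKN2B had 24 at the same GC content, the highest count of the 5. CDKN2B had 18 at 66.4% GC and DMRTA1 had 13 at 61.6% GC. The members thus lay between the 50.6th and the 77.3rd percentile of the table by CG count.

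Common promoter motifs were searched on both strands in the same 250 bases. The GC box GGGCGG, which itself holds a CG, was found 3 times upstream of DMRTA1, 2 times each upstream of MTAP and CDKN2B and 1 time at the CDKN2A start nearer MTAP. No match lay at the other CDKN2A start. This motif was present in 42.6% of all promoters. The TATA box motif TATAAA was found only upstream of MTAP among the 5, against 10.7% of all promoters. That match lay near the end of the 250 bases farthest from the start. CCAAT was found 1 time each upstream of MTAP and DMRTA1, against 32.0% of all promoters. These motifs do not overlap each other in sequence, and a match is a description of the letters only.

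No H3K4me3 peak was called at or near any member in either list. None of the 5 start sites had a peak within 5 kb. All 5 fell into a single stretch without peaks, in the control list and in the knockout list alike. The deposited lists hold no tags outside peaks, so DNA that is absent, DNA that is present without the mark and a mark too weak to be called cannot be told apart. Neither can a mark in few cells and a weak mark in all cells. The weakest called peak held 18 tags in the control list and 12 in the knockout list. For a count of 0 peaks, the 95% limit of counting error, on the upper side only, is about 3. The window was chosen with earlier results known, so this limit describes counting and not the locus.

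In control cells the stretch ran from the end of a peak at 20756762 to the start of the next at 25676666. Its length was 4.92 Mb, against a median of 25.9 kb between neighbouring control peaks. It was the 12th longest of 36653 such spans over all chromosomes and the second longest of 1518 on chromosome 9.

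In ARID1A knockout cells the stretch ran from 20684992 to 24682233, a length of 3.997 Mb, against a median span of 41.9 kb. It was the 15th longest of 23564 spans and again the second longest on chromosome 9, of 1069. The left ends of the control and knockout spans lay 71.8 kb apart and the right ends 994 kb apart. With the control list cut to the 23588 peaks with the most tags, the number in the knockout list, its span ran from 20733323 to 25676666, so the right ends were as far apart. The part of the lower depth of the knockout library, and of its few tags outside peaks, was not tested.

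**Figure D1:**
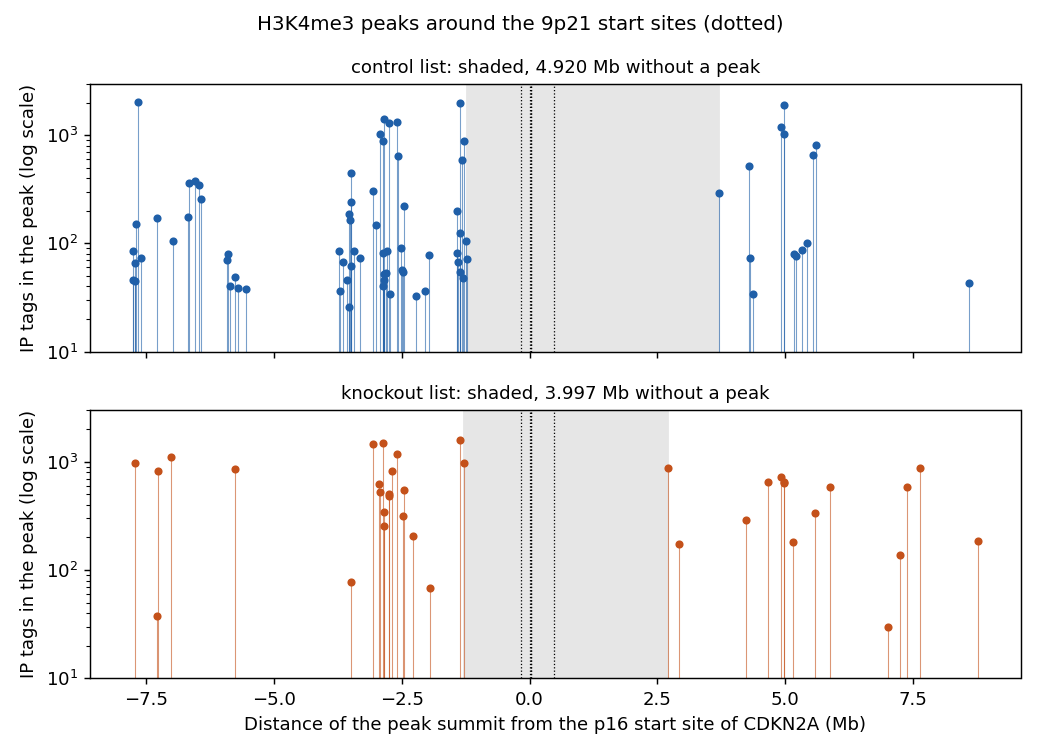
H3K4me3 peaks on chromosome 9 around the members, control list above and knockout list below. Each point is a peak, placed by the distance of its summit from the p16INK4A start site of CDKN2A (Mb) and by its IP tags on a log axis; dotted lines are the 5 start sites, which all fall in the shaded spans of 4.92 and 3.997 Mb without a peak.

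MTAP, the member closest to a peak, lay 1.05 Mb from the nearest control peak and 1.12 Mb from the nearest knockout peak, in both cases on the side of lower coordinates. Bases at least as far from a peak as MTAP made up 5.46% in the control list and 4.66% in the knockout list. All bases between the first and last peak of a chromosome in the same list were counted. The longest spans are thus included, such as 37.9 Mb on chromosome Y and 18.6 Mb on chromosome 9 in the control list. Whether a peak could be called in such spans was not examined, so these shares may count bases where none could be. The p16INK4A start site of CDKN2A, at 21974826, lay 1.22 Mb from the nearest control peak and 1.29 Mb from the nearest knockout peak. On the side of higher coordinates the nearest peaks were 3.70 and 2.71 Mb away. The ARF start site, 19.7 kb further on at 21994490, had nearest distances of 1.24 and 1.31 Mb.

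CDKN2B, whose start site at 22009312 is 14.8 kb past that of ARF, lay 1.25 Mb from a control peak and 1.32 Mb from a knockout peak. DMRTA1, 438 kb further on, was the most distant, at 1.69 and 1.76 Mb. For DMRTA1, 3.67% of bases, counted as for MTAP, were as far from a control peak and 2.91% as far from a knockout peak. In both lists the nearest peak to all 5 start sites was the same left-hand peak, so the distances follow the order of the genes and are not separate observations.

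**Figure D2:**
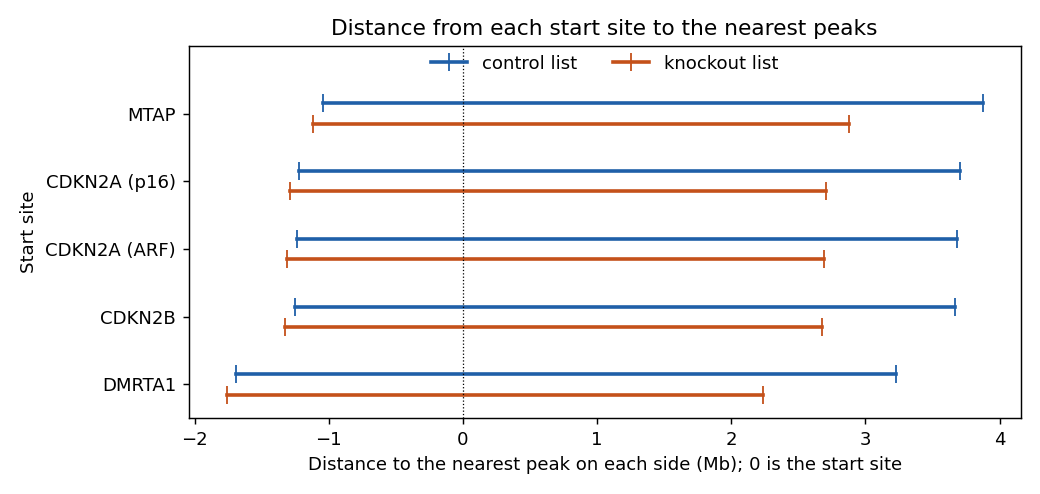
Distance from each of the 5 start sites (rows) to the nearest peak on the left and on the right (Mb), for the control list and the knockout list; 0 is the start site. The left distances rise from 1.05 Mb at MTAP to 1.69 Mb at DMRTA1 in the control list, and the right distances are shorter in the knockout list for every site.

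By gene order in RefSeq, 9 annotated entries begin from MTAP to DMRTA1: the 4 members and 5 others. The others are CDKN2A-AS1, the antisense RNA CDKN2B-AS1 (ANRIL), LOC124902130 and the pseudogenes TUBB8P1 and UBA52P6. With the start sites of MTAP and DMRTA1 inside the span, these starts lie in it too if the order holds in hg19. On the MTAP side the next protein-coding genes are IFNE, IFNA1 and further type I interferon genes, with KLHL9 among them, then HACD4, FOCAD and MLLT3. On the DMRTA1 side they are ELAVL2, IZUMO3 and TUSC1. Which of these outer genes lie within the span was not analysed here, because only an annotation in another build was used.

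With both lists put together, no peak of either genotype lay between 20756762 and 24682233. This shared stretch of 3.93 Mb was 79.8% of the control span and 98.2% of the knockout span. It ranked 11th among 46001 spans without a peak of either list, whose median was 22.3 kb. Of the 10 longer spans, 3 were on chromosome Y. The other 7 were on chromosomes 1, 9, 16, 11, 7, 6 and 21, in places that general knowledge of hg19 puts around centromeres, though no centromere annotation was used here.

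**Figure D3:**
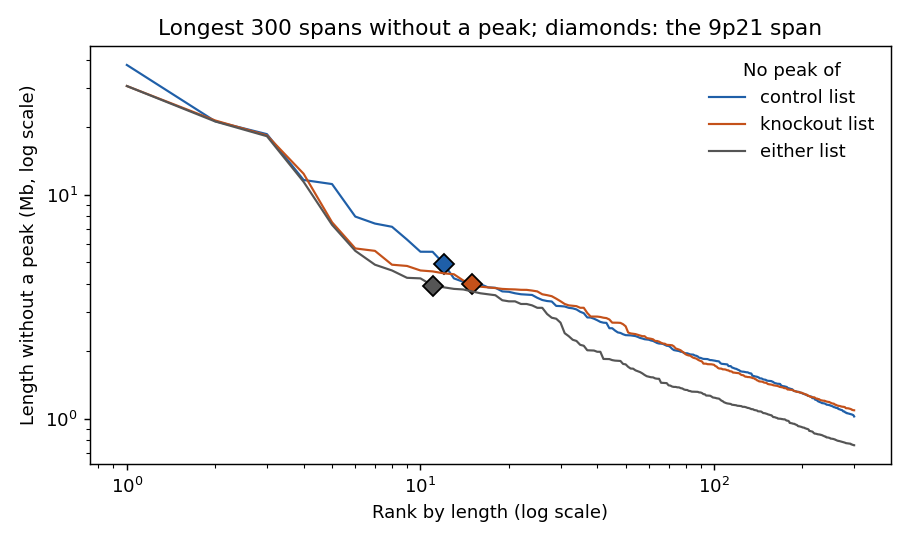
The 300 longest spans without a peak of the control list, of the knockout list and of either list, by rank and length in Mb, both on log axes. Diamonds mark the 9p21 span, at rank 12 with 4.92 Mb, rank 15 with 3.997 Mb and rank 11 with 3.93 Mb.

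Windows of equal size place the 2 Mb window in the genome. Over 1484 windows of 2 Mb between the first and last peak of each chromosome, the median was 22 control peaks (quartiles 9 and 36) and 12 knockout peaks (quartiles 5 and 20). Of these windows 5.66% held no control peak, 5.26% no knockout peak and 4.11% no peak of either list, which is 61 windows. Windows on chromosome Y and in the longest spans were counted too, and whether a peak could be called there was not examined. On chromosome 9, 9 of 70 windows held no peak of either list. Many of these windows lay wholly inside the 10 longer spans named above. Without such windows, all empty by construction, 16 of 1439 (1.11%) held no peak of either list. On chromosome 9 this left 1 of 62, the 9p21 window itself. The cut was set by the length of the 9p21 span, so only longer stretches were taken out. These shares therefore do not measure how rare the window is. The mean density of chromosome 9 corresponds to 21.5 control peaks and 15.2 knockout peaks in a window of this length. The median over the 70 windows of chromosome 9 was lower, at 17 control peaks (quartiles 5.25 and 36.75) and 13 knockout peaks (4 and 21.5).

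**Figure D4:**
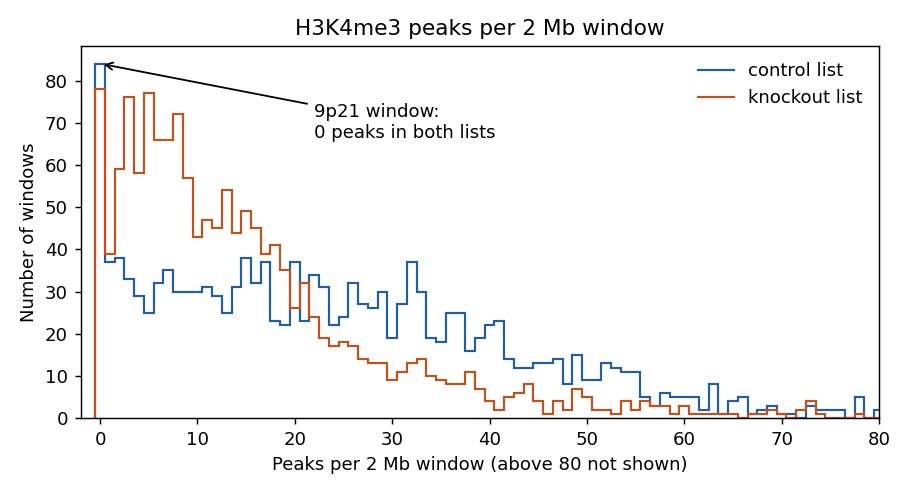
Number of 2 Mb windows (vertical axis) by the number of H3K4me3 peaks they hold (horizontal axis), for the control list and the knockout list. The 9p21 window is among the windows with 0 peaks in both lists, while the medians are 22 control and 12 knockout peaks.

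The peaks next to the members on the left included strong ones shared by both genotypes. The control peak from 20681673 to 20686823 held 878 tags (exact Poisson interval 821 to 938) over 5151 bp and had a fold enrichment of 149 over local background. Inside it lay the last knockout peak before the span, from 20684278 to 20684992, with 981 tags (921 to 1044) over 715 bp. These counts placed the pair at the 80.7th percentile of control and the 83.7th percentile of knockout peaks by tags.

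Further to the left, the control peak from 20618717 to 20625368 with 1976 tags held the knockout peak from 20619787 to 20620637 with 1607 tags (1529 to 1688). That knockout peak was at the 94.9th percentile of its list. Between these, the control list had peaks of 48 tags (from 20679029 to 20680301) and 596 tags (from 20657475 to 20661102) that held no knockout peak.

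A pair of weak control peaks stood between the last shared peak and the span. They ran from 20730851 to 20733323 with 105 tags (86 to 127) and from 20754582 to 20756762 with 72 tags (56 to 91). Their false discovery rates were 1.28% and 3.53%, and their tags were at the 36.2nd and 23.0th percentiles of the control list. No knockout peak met them, the nearest being 45.9 and 69.6 kb away. In the control list as a whole, 28.4% of peaks overlapped a knockout peak. Both weak peaks dropped out when a false discovery rate of at most 1% was asked for. The control span then began at 20686823 and measured 4.99 Mb.

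On the right the first peaks of the lists were not shared. The knockout list resumed with a peak from 24682233 to 24682721, with 878 tags (821 to 938) in 489 bp and a fold enrichment of 590. A second followed from 24909377 to 24909676, with 173 tags (148 to 201) in 300 bp. Both lay inside the control span, 994 and 767 kb from the nearest control peak. Among the 9357 knockout peaks that met no control peak, 0.588% lay farther from a control peak than the first and 1.13% farther than the second, against a median distance of 18.3 kb. In the knockout list as a whole, 60.3% of peaks overlapped a control peak.

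The control list resumed later, with a peak from 25676666 to 25679699 that held 292 tags (259 to 327) over 3034 bp, at a false discovery rate of 0.18%. The nearest knockout peak was 535 kb away, and of the 26250 control peaks that met no knockout peak, 1.18% were farther from the knockout list. The next control peak ran from 26258668 to 26267114 with 515 tags, and the next knockout peak from 26214223 to 26214522 with 293 tags. They were separated by 44.1 kb.

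The first shared peak on the right was the control peak from 26889128 to 26894776, with 1183 tags (1117 to 1252). It held the knockout peak from 26892126 to 26892584, with 718 tags (666 to 772). Between the last shared peak on the left and this one lay 6.20 Mb, the 21st longest of 10394 spans between shared peaks. Peaks called in only 1 list fill the right part of the stretch: 2 knockout peaks within the control span, and past it peaks of both lists that do not meet.

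The 6 pairs that matched 1 to 1 from 1 Mb left of the window to 5 Mb right of it had mixed tag ratios. The ratio of knockout to control tags, on the log2 scale with a pseudocount of 1 and centred on the median of all 7552 such pairs, was 0.62 (0.48 to 0.75) at the control peak from 20681673, with the sign reversed per kb of peak width (-0.055). It was 0.16 (0.06 to 0.25) at the peak from 20618717, again reversed per kb (-0.39), and -0.26 (-0.40 to -0.13) at the peak from 26889128, reversed after division by the library totals (0.33). Farther to the right it was -0.20 (-0.35 to -0.06) at the peak from 26953007, which turned positive under both of these scalings. At the peaks from 26943212 and 27571158 it was -1.10 (-1.23 to -0.97) and -0.81 (-1.0004 to -0.63), and the sign held under each scaling. The 6 ratios lay between the 27.1st and the 63.7th percentile of all pairs, with both pairs on the left above the median and all 4 on the right below it. Of these signs, 4 depended on the scaling.

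The control list was denser on the left of the span than on the right. In the 5 Mb to the left of the shared stretch there were 51 control peaks, 10.2 per Mb, and 18 knockout peaks, 3.6 per Mb. In the 5 Mb to the right there were 13 control and 14 knockout peaks, 2.6 and 2.8 per Mb. Chromosome 9 as a whole held 10.8 control and 7.61 knockout peaks per Mb. On the left, 13 of the 18 knockout peaks met a control peak (72.2%, exact Clopper-Pearson interval 46.5 to 90.3%), and on the right 4 of 14 did (28.6%, 8.39 to 58.1%). In the knockout list as a whole the share was 60.3%. Of the control peaks, 11 of 51 on the left held a knockout peak (21.6%, 11.3 to 35.3%) and 4 of 13 on the right (30.8%, 9.09 to 61.4%), against 28.4% in the whole list. The intervals of the flanks overlap in each list, and their difference was not tested.

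In bins of 1 Mb counted from the p16INK4A start site, peak number fell to 0 within 1 bin on the left. The bin from 3 to 2 Mb before the start site held 20 control peaks with 7624 tags and 12 knockout peaks with 7306 tags. The bin from 2 to 1 Mb before it held 12 and 3 peaks, with 4280 and 2656 tags. The next 3 bins held 0 peaks of either list. The knockout list then had 2 peaks with 1051 tags in the bin from 2 to 3 Mb after the start site, and the control list had 1 peak with 292 tags in the following bin. From 4 to 5 Mb after the start site there were 6 control and 5 knockout peaks, with 4714 and 2952 tags. The bins from 5 to 4 Mb before the start site and from 6 to 7 Mb after it also held 0 peaks of either list.

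**Figure D5:**
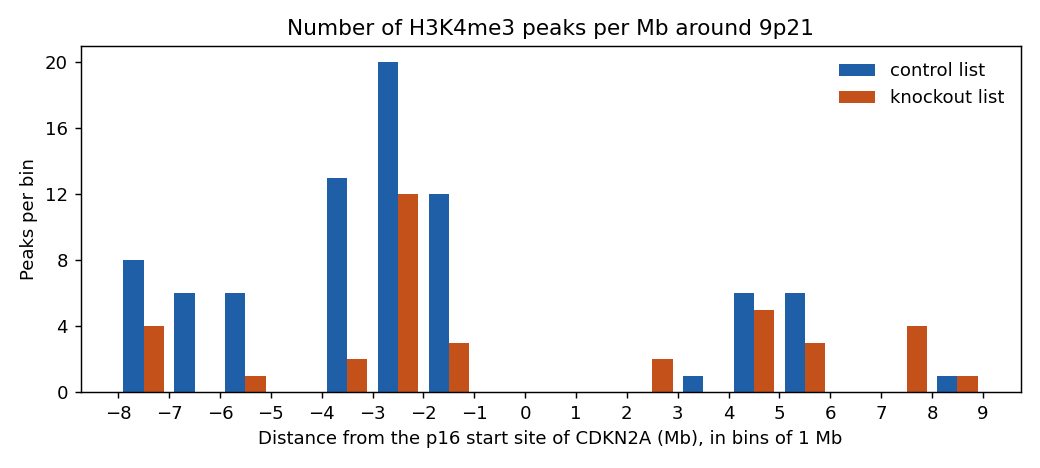
Number of H3K4me3 peaks in bins of 1 Mb, by distance from the p16INK4A start site of CDKN2A (Mb), for the control list and the knockout list. Bars stand for peaks with their summit in the bin. The 3 bins from 1 Mb before to 2 Mb after the start site hold 0 peaks of both lists. So do the bins from 5 to 4 Mb before it and from 6 to 7 Mb after it. The bin from 3 to 2 Mb before it holds 20 and 12.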

How the data were processed

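Peak lists of 1 control and 1 ARID1A knockout H3K4me3 IP were used. Per the submitters' processing notes, Bowtie2 2.2.4, MACS 1.4.3 and hg19 were used. Per the file headers, adapters were trimmed with cutadapt, and peaks of each IP were called by MACS over the input of its genotype, with a p cutoff of 0.0001, a fragment length of 300 bp and the larger library scaled to the smaller. Peaks were called per library, with no pooling. Fold enrichments were therefore not compared between the lists.

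The deposited tags are whole-number counts of IP tags per peak, not normalized. The deposited score is the negative log10 of the peak caller's p, multiplied by 10, identified by its place because its column name was lost. The deposited fold enrichment is a ratio to the local background from the input, and false discovery rates were deposited in percent. Score, fold and percent were used only to describe or filter peaks within a list. Positions are in bp, 1-based.

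Values were computed with scipy 1.17.1, pandas 2.3.3 and numpy 2.4.6 under Python 3.11.15 and drawn with matplotlib 3.10.9. A span is the distance between the edges of neighbouring peaks. Peaks were shared at an overlap of at least 1 bp. Intervals are exact at 95% and cover counting error only, since tags that are copies of 1 fragment count separately. With 27748061 and 13391724 IP tags, 18 and 12 tags were the lowest counts of a called peak. The span and ratio steps were tested on simulated data, and overlap counts were checked against direct counting. The members, start sites and window were chosen with earlier results of these data known. Planned to be named were peaks within 5 kb of a start site, those bounding the spans, and the window's strongest and shared peaks. As the window held none, further peaks among the nearest 5 of each list on each side were named. So were the 6 shared pairs from 1 Mb left of the window to 5 Mb right of it, some of them beyond the nearest 5. Both choices were made after the values were seen. The planned overlap and ratio within the window had no value, since it held no peaks. The flanks, the joint span and the span between shared peaks were added later, with the data in view. The alternatives tried were lists of equal length, stricter thresholds, wider knockout peaks only, summits in place of edges, other windows and other scalings. Gene names and promoters came from RefSeq tables in GRCh38.p14, and no coordinate was converted. Other genes of 9p21 and of the RB1 and p53 pathways have no values here, because no hg19 annotation was used. No test was made, and no p-value is given.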

Additional observations from a re-analysis of the deposited data

How the results depend on the processing

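Stricter thresholds (a MACS p of 1e-10 or less, a fold enrichment of 10 or more, a false discovery rate of 1% or less), lists of equal length and only knockout peaks wider than 300 bp can only remove peaks, so the window stayed at 0 by construction and spans could only lengthen. Under these the control span measured 4.92 to 4.99 Mb and the knockout span 3.997 Mb. Between summits they measured 4922736 and 3998048 bp. Among the spans, distances and window shares, the value that moved by over 1.5 times was the share of windows with no peak of either list, 4.11% as reported and 6.68% with windows of 1 Mb, which are smaller by construction. The rank of the control span, 12 as reported, was 20 with a false discovery rate of 1% or less and with lists of equal length. The rank of the knockout span fell from 15 to 48 with only knockout peaks wider than 300 bp, a list of 10611 peaks, while its ends did not move. For the 6 ratios of shared pairs, added after seeing the data, 5 recomputed values reversed, at 4 pairs; the pairs from 26943212 and 27571158 kept their sign. Per kb of peak width, the pairs from 20618717, 20681673 and 26953007 gave -0.39, -0.055 and 0.79. After division by the library totals, the pairs from 26889128 and 26953007 gave 0.33 and 0.39. The cause was not tested. The overlap of peaks within the window could not be recomputed, since the window holds none. No paired analysis was possible because each genotype has 1 IP library. Of the IP tags, 84001 of the knockout and 10512500 of the control lay outside peaks. Per Mb of the peak caller's effective genome this was 31.1 and 3894 tags. How depth and this difference limit either list, and so the ends of the spans, was not tested.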

Other observations

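The short arm of chromosome 9 held other long stretches without an H3K4me3 peak in both lists. The next longest on the chromosome after 9p21 ran from 9442455 to 12122792 without a peak of either list, over 2.68 Mb. Its left end was almost the same in both lists, at 9442455 in the control and 9442447 in the knockout. A stretch of 1.81 Mb from 16426246 to 18237430 also held no peak of either list, as did 1.64 Mb between 7800430 and 9441868. Only 1 peak of each list, between 9441868 and 9442455, parted the stretches of 1.64 and 2.68 Mb.

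Long control spans were often broken by knockout peaks elsewhere. Of the 76 control spans of at least 2 Mb, 10 held no knockout peak, and the median was 2 knockout peaks, the number found in the 9p21 span. On chromosome X a control span of 6.30 Mb from 30909305 to 37208089 held 11 knockout peaks, and on chromosome 18 a span of 3.68 Mb from 68132515 to 71813796 held 9. In the opposite direction, 11 of the 77 knockout spans of at least 2 Mb held no control peak. The knockout span at 9p21 held 2 control peaks, both at its left end.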
